A study of Homo sapiens with 24 samples.

Results

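The 10 genes of the Kruppel-like factor (KLF) family, KLF2, KLF3, KLF4, KLF5, KLF6, KLF7, KLF9, KLF10, KLF11 and KLF13, were followed across herb-treated and control cancer cells. They were chosen as a list of family symbols, matched to the Ensembl identifiers of the count table, and all 10 were found among its 14584 protein-coding genes. The table holds 15 KLF genes in all. The other 5, KLF8, KLF12, KLF15, KLF16 and KLF17, are given further on as relatives.

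Kruppel-like factors are transcription factors whose C-terminal zinc fingers bind GC-rich and CACCC sequences in promoters. The N-terminal part differs between members and decides the partner, so that KLF2, KLF4, KLF5, KLF6 and KLF7 are known mainly as activators, KLF3 as a repressor that recruits the co-repressor CtBP, and KLF9, KLF10, KLF11 and KLF13 as factors that recruit Sin3A. Several of them are induced quickly by serum, stress, flow or TGF-beta, and members of the family are known for switching epithelial cells between growth and differentiation. SP factors bind the same type of DNA element.

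RNA was sequenced from A549, a human lung carcinoma line, and Huh7, a human hepatocellular carcinoma line, both labelled wild type. The study describes A549 as having wild-type p53 and Huh7 as having mutant p53, so the lines also differ in this gene. Each line was left as control or given an extract of Pulsatilla chinensis (P. chinensis), Bupleurum chinense (B. chinense) or Polyporus umbellatus (P. umbellatus), herbs used in traditional Chinese medicine, and each of the 8 groups held 3 libraries. The study asked how the 3 herbs, which it had selected for reducing cell viability, act on lung and liver cancer cells and whether the lines respond alike. Extracts were dissolved in DMSO, but the dose and time used for the sequenced cells, and whether controls received DMSO, are not given in the sources used here. Each tissue is represented by 1 cell line, and nothing in the labels says whether the 3 libraries of a group came from separate cultures, so p-values measure the spread between these libraries, which may be technical.

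The libraries held 6803648 to 24345364 counts (median 10515131). In Huh7, control and P. chinensis libraries held 13259116 to 24345364 counts. The Huh7 B. chinense and P. umbellatus libraries held 7182412 to 11546054. Depth and treatment therefore cannot be told apart in contrasts between the former and the latter groups. The lines matched their labels where markers could tell them apart. In Huh7 controls APOB and ALB averaged 11158 and 4778 counts per 1000000 (CPM), and the hepatocyte markers ALB, AFP, APOB, APOA1, TTR and SERPINA1 did not exceed 0.770 CPM in any A549 control library. The seventh hepatocyte marker, HNF4A, was found in both lines, at 115 CPM in A549 and 451 CPM in Huh7 controls. Conversely, the keratin gene KRT7 averaged 1665 CPM in A549 controls and was at 0 in all Huh7 controls, whereas the surfactant gene SFTPB was at 1.28 CPM in A549 and 3.24 CPM in Huh7. The other lung epithelial markers in the table, KRT8, KRT18 and EPCAM, were found in both lines, EPCAM at no more than 8.26 CPM. The immune marker PTPRC did not exceed 2.89 CPM in any control library. Other genes in its list, the markers of other cell types, were higher. The list summed to 31.7 to 35.9 CPM in A549 controls and 71.5 to 76.1 CPM in Huh7 controls. Replicate 2 of Huh7 P. umbellatus stood apart: the median squared deviation of its counts from those of the other 2 libraries of its group was 13.3 and 17.6 times that of sampling noise, compared with 2.74 to 5.36 times in all other pairs of replicates.

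The promoters of these genes differ widely in base composition, and 4 of them are shown because they span the range from GC-rich to GC-poor and include KLF4, the member with the largest called fold change in each line. RefSeq promoter windows (GRCh38.p14) were matched for 8 of the 10 members, in 13 windows, and KLF3 and KLF10 had no entry. Each sequence is the 250 bases before a transcript start, 5′ to 3′ on the gene's strand. For KLF4 that is the start of the canonical transcript, and the annotated gene begins further upstream, so the window lies within the gene. Whether it falls in an exon or an intron of another transcript was not examined. Capitals mark GC boxes (GGGCGG or its complement CCGCCC) and CACCC boxes (or GGGTG), the elements that KLF and SP proteins bind.
KLF2, chr19:16324576-16324825, plus strand: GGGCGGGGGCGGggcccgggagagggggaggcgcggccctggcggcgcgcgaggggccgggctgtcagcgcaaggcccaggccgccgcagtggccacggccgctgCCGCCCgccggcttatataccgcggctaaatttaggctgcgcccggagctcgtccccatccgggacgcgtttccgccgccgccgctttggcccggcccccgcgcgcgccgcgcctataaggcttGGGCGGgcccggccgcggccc
KLF4, chr9:107489770-107490019, minus strand: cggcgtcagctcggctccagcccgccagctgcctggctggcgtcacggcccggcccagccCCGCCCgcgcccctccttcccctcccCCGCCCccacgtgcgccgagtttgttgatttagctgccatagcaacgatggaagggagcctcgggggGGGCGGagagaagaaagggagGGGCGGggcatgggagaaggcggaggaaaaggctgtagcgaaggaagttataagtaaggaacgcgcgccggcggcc
KLF13, chr15:31326585-31326834, plus strand: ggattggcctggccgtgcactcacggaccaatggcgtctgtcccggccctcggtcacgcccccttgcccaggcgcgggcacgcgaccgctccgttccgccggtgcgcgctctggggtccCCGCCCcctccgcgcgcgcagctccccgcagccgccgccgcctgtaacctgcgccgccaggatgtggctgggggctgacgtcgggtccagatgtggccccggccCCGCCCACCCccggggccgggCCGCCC
KLF9, chr9:70414658-70414907, minus strand: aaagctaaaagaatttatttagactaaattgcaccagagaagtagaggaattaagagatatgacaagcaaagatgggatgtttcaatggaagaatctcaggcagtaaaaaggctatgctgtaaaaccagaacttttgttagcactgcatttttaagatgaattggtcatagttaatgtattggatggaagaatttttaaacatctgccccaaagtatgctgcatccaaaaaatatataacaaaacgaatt

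GC content was 80.0% in the KLF2 window, 69.2% in KLF4, 78.8% in KLF13 and 32.4% in KLF9, beside a median of 58.0% over 35116 promoters of the same length. The KLF2 and KLF4 windows each held 4 GC boxes and no CACCC box. In KLF13 there were 3 GC boxes and 1 CACCC box, the latter overlapping a GC box by 1 base, and KLF9 held neither element. On both strands, a GC box was present in 42.6% of all promoters and CACCC in 54.7%. The cAMP response element TGACGTCA, present in 1.65% of all promoters, was found in 1 member window, the second of KLF11. These matches are letters in a window and were not linked to binding.

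Levels of different genes were compared as CPM per kb of annotated transcript. In A549 controls KLF10 was highest at 35.4 ± 1.32 (SD, n = 3), followed by KLF5 at 26.8 ± 0.718, KLF6 at 19.6 ± 0.789, KLF3 at 14.9 ± 0.322 and KLF7 at 10.1 ± 0.512. These 5 did not overlap between libraries. KLF2 at 3.01 ± 0.534, KLF4 at 2.96 ± 0.357 and KLF11 at 2.58 ± 0.169 overlapped their neighbours in this order, as did KLF13 at 0.875 ± 0.385 and KLF9 at 0.447 ± 0.120. In Huh7 controls the order began with KLF3 at 27.7 ± 1.33 CPM per kb, then KLF6 at 19.9 ± 0.638, KLF5 at 13.4 ± 0.539 and KLF10 at 10.9 ± 0.914, again without overlap. KLF2 at 7.68 ± 1.31 overlapped KLF4 at 7.13 ± 1.24, and KLF11 at 3.97 ± 0.247 overlapped KLF7 at 3.69 ± 0.164. KLF9 at 2.50 ± 0.349 and KLF13 at 1.16 ± 0.0147 were lowest. The leading member thus differed, KLF10 in lung carcinoma cells and KLF3 in hepatoma cells, while KLF6 overlapped between the lines.

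**Figure D1:**
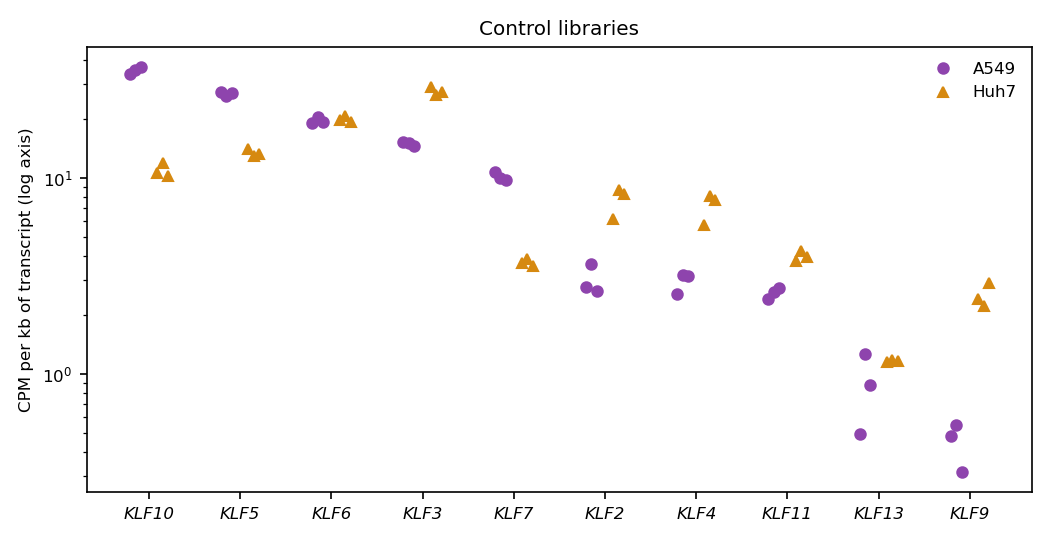
Level of each KLF gene in the 3 control libraries of A549 (circles) and Huh7 (triangles), in CPM per kb of annotated transcript on a log axis, genes ordered by their A549 mean. KLF10, KLF5 and KLF7 lie higher in A549, KLF3, KLF2, KLF4, KLF11 and KLF9 lie higher in Huh7, and KLF6 and KLF13 overlap.

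Between the control lines 8 of 10 members differed in edgeR's quasi-likelihood test (adjusted p below 0.05 after Benjamini-Hochberg adjustment over all genes tested), 3 higher and 5 lower in A549, beside 33.8% of all genes higher and 34.9% lower at the same threshold. The share of members called was thus near that of all genes. KLF10 (log2 difference, A549 minus Huh7, 1.72), KLF7 (1.48) and KLF5 (1.02) were higher in A549. KLF9 (-2.39), KLF2 (-1.31), KLF4 (-1.23), KLF3 (-0.87) and KLF11 (-0.59) were lower there. KLF6 differed by 0.00 ± 0.08 (SE, edgeR adjusted p = 0.975) and KLF13 by -0.37 ± 0.49 (edgeR adjusted p = 0.516). With 1 line per tissue, the line, its culture and its library preparation cannot be told apart.

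Each herb was next compared with the control of its line. In A549, 4 members rose and 1 fell with P. chinensis, where 15.8% of all genes rose and 17.1% fell. With B. chinense 1 rose and 1 fell (13.1% and 15% of all genes), and the same 2 genes, KLF4 up and KLF5 down, were called with P. umbellatus (13.4% and 14.8%). In Huh7, 5 members rose and none fell with P. chinensis, where 10.5% of all genes rose and 10.5% fell (6 members at an unadjusted p below 0.05, none down with DESeq2 and 1 down with voom). With B. chinense 2 rose and none fell (0.519% and 0.757% of all genes), and with P. umbellatus 6 rose and 2 fell (19.3% and 17.8%). The median log2 fold change over the 10 members ran from 0.09 to 0.20 in A549 and from 0.23 to 0.34 in Huh7, whereas the median of all genes tested stayed between -0.01 and 0.03. The share of members called was near the background in A549 B. chinense and P. umbellatus. In Huh7 P. umbellatus fold change followed transcript GC content over all genes (Pearson r = -0.613). Genes under 47% GC had a median of 0.27 there, and the 6 members that rose had 41.1% to 47.1% GC. All genes are therefore not a like background for the members in that comparison. With offsets for GC content and transcript length, KLF4, KLF6, KLF7 and KLF10 rose there and 0 members fell. As CPM are shares of a library, fewer cells of one kind and less RNA per cell cannot be told apart. The 3 herbs of a line share their control libraries, so their contrasts are not independent.

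**Figure D2:**
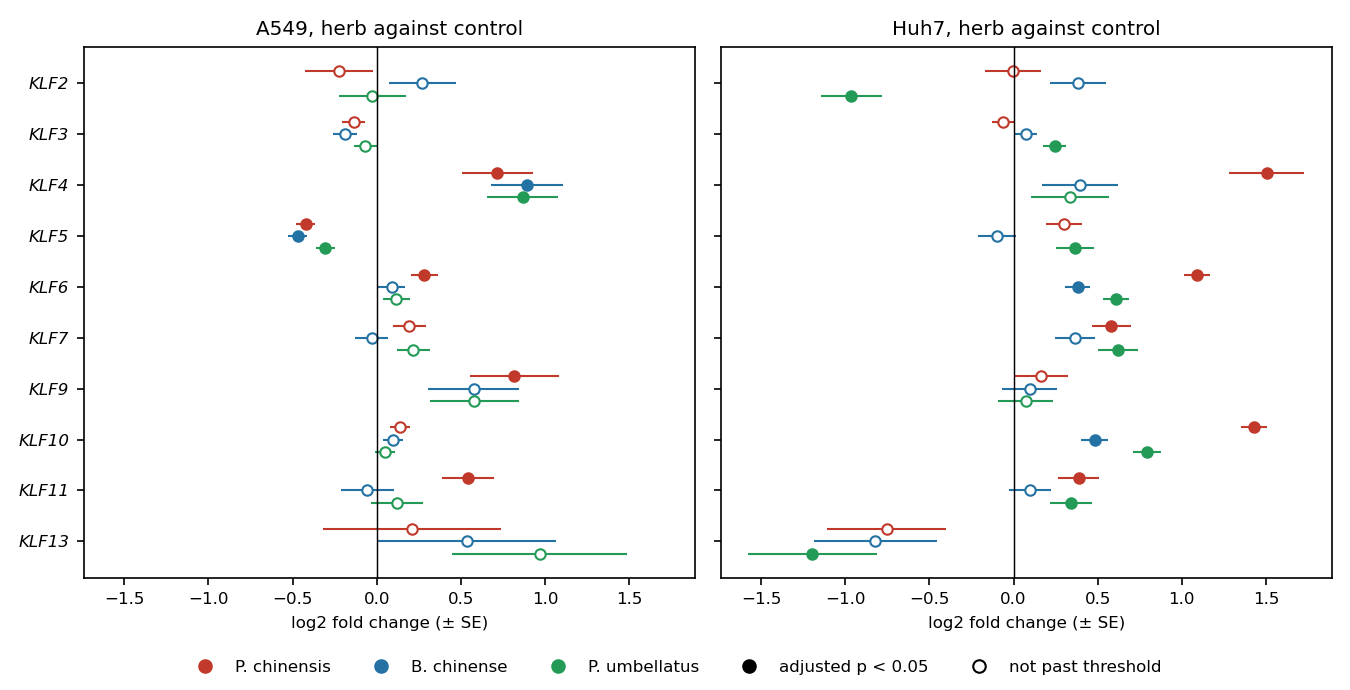
Log2 fold change of each KLF gene against the control of its line, with bars of 1 standard error, in A549 (left) and Huh7 (right). Filled points have an adjusted p below 0.05. KLF4 is raised and KLF5 lowered by every herb in A549, and KLF6 and KLF10 are raised by every herb in Huh7, most by P. chinensis.

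KLF4 and KLF2 are close relatives that share targets in vessels and epithelium, and KLF4 is one of the factors used to reprogram cells to pluripotency. KLF4 was at 7.47, 9.32 and 9.24 CPM in A549 controls. In A549 P. chinensis, KLF4 measured 14.0, 17.8 and 12.5 CPM. All treated libraries lay above all controls. The A549 B. chinense libraries held 14.4, 19.1 and 16.8 CPM of KLF4. For KLF4 in A549 P. umbellatus the values were 21.1, 11.7 and 17.2 CPM. KLF4 thus rose with each herb in A549, without overlap with control. With P. chinensis the log2 change in A549 was 0.72 ± 0.21 (SE, edgeR adjusted p = 0.0179). B. chinense gave a log2 fold change of 0.89 ± 0.21 in A549 (edgeR adjusted p = 0.00579). The A549 fold change with P. umbellatus was 0.87 ± 0.21 (log2 ± SE, edgeR adjusted p = 0.00634). The P. chinensis call was lost without control replicate 1 (0.63, edgeR adjusted p = 0.0643) and without P. chinensis replicate 2 (0.56, edgeR adjusted p = 0.0875).

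In Huh7 KLF4 started higher and was called with P. chinensis. Levels of 16.8, 23.5 and 22.5 CPM were found for KLF4 in Huh7 controls. KLF4 stood at 60.3, 56.8 and 54.4 CPM in Huh7 P. chinensis. The 3 P. chinensis libraries were far above the rest. KLF4 was at 28.6, 25.3 and 27.7 CPM in Huh7 B. chinense. In Huh7 P. umbellatus, KLF4 measured 28.5, 13.9 and 33.4 CPM. Replicate 2 of P. umbellatus, the library that stood apart, lay below every control and its 2 partners above every control. P. chinensis gave a log2 fold change of 1.50 ± 0.22 in Huh7 (edgeR adjusted p = 0.000538). With B. chinense the log2 change in Huh7 was 0.39 ± 0.23 (SE, edgeR adjusted p = 0.546). The Huh7 fold change with P. umbellatus was 0.34 ± 0.23 (log2 ± SE, edgeR adjusted p = 0.27). Without P. umbellatus replicate 2 the last value was 0.61 (edgeR adjusted p = 0.00415). The response of KLF4 to P. chinensis was not shown to differ between lines (A549 minus Huh7, -0.73 ± 0.34, edgeR adjusted p = 0.14). An RNA on the opposite strand overlaps KLF4, and the strand setting of the counting is not given in the sources used here.

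KLF2, which keeps endothelial cells and T cells quiescent, was called in 1 comparison with control. The Huh7 control libraries held 17.4, 24.29 and 23.3 CPM of KLF2. For KLF2 in Huh7 P. umbellatus the values were 10.4, 7.78 and 13.4 CPM. The groups did not overlap. With P. umbellatus the log2 change in Huh7 was -0.96 ± 0.18 (SE, edgeR adjusted p = 0.00255). Levels of 20.9, 19.5 and 21.9 CPM were found for KLF2 in Huh7 P. chinensis. KLF2 stood at 26.9, 30.5 and 26.4 CPM in Huh7 B. chinense. B. chinense libraries were all above control, but this did not pass the adjusted threshold (0.38 ± 0.17, edgeR adjusted p = 0.375). In A549 the 12 libraries ranged from 6.22 to 11.1 CPM, and no herb passed the test (edgeR adjusted p of 0.358 to 0.943). The P. umbellatus response of KLF2 differed between lines by 1.02 ± 0.27 (A549 minus Huh7, edgeR adjusted p = 0.00551). Both KLF2 calls were lost with offsets for GC content and transcript length (-0.37 and 0.27, edgeR adjusted p = 0.0871 and 0.44).

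KLF5 promotes proliferation in the basal layers of epithelia and is a relative of KLF4 with often opposite action. It was the only member called lower in A549. KLF5 was at 91.6, 87.2 and 90.9 CPM in A549 controls. In A549 P. chinensis, KLF5 measured 69.3, 71.3 and 65.2 CPM. The A549 B. chinense libraries held 66.4, 67.7 and 65.8 CPM of KLF5. All B. chinense and P. chinensis libraries were below every control. For KLF5 in A549 P. umbellatus the values were 74.8, 75.3 and 77.5 CPM. This group also stayed below control. P. chinensis gave a log2 fold change of -0.42 ± 0.06 in A549 (edgeR adjusted p = 4.78e-05). The A549 fold change with B. chinense was -0.47 ± 0.06 (log2 ± SE, edgeR adjusted p = 2.83e-05). P. umbellatus gave a log2 fold change of -0.31 ± 0.06 in A549 (edgeR adjusted p = 0.000857). These 3 calls held in each of 20 alternative settings, with log2 fold changes between -0.49 and -0.27.

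No fall of KLF5 was called in Huh7. Levels of 46.8, 43.3 and 44.5 CPM were found for KLF5 in Huh7 controls. KLF5 stood at 57.01, 46.3 and 56.2 CPM in Huh7 P. chinensis. The lowest P. chinensis library lay inside the control range. KLF5 was at 45.4, 36.7 and 42.2 CPM in Huh7 B. chinense. In Huh7 P. umbellatus, KLF5 measured 62.4, 52.1 and 52.5 CPM. P. umbellatus libraries were above all controls. With P. umbellatus the log2 change in Huh7 was 0.37 ± 0.11 (SE, edgeR adjusted p = 0.024). The test was not passed with P. chinensis (0.30 ± 0.11, edgeR adjusted p = 0.0729) or B. chinense (-0.10 ± 0.11, edgeR adjusted p = 0.82). KLF5 with P. chinensis did pass in 6 of 20 alternative settings, among them voom (adjusted p = 0.00881), only the 6 libraries (edgeR adjusted p = 0.0156) and a fit without P. umbellatus replicate 2 (edgeR adjusted p = 0.0349). The P. umbellatus call was lost without control replicate 2 (edgeR adjusted p = 0.101), control replicate 3 (0.0681) or P. umbellatus replicate 1 (0.0839). It was also lost with only the 6 libraries compared (edgeR adjusted p = 0.0892) and with offsets for GC content and transcript length (edgeR adjusted p = 0.164). KLF5 responded differently in the lines, by -0.67 ± 0.12 (A549 minus Huh7) with P. chinensis (edgeR adjusted p = 0.000409) and by -0.59 ± 0.12 with P. umbellatus (edgeR adjusted p = 0.00107).

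KLF6 is an activator first described as a tumor suppressor in the prostate and an early response gene in liver injury. In Huh7 it rose with every herb. The Huh7 control libraries held 90.9, 94.3 and 88.4 CPM of KLF6. For KLF6 in Huh7 P. chinensis the values were 180.3, 182 and 198 CPM. No P. chinensis library came near control. Levels of 112, 114 and 125 CPM were found for KLF6 in Huh7 B. chinense. KLF6 stood at 137, 140.1 and 124 CPM in Huh7 P. umbellatus. Both groups were above control in all libraries. The Huh7 fold change with P. chinensis was 1.09 ± 0.08 (log2 ± SE, edgeR adjusted p = 1.81e-06). With B. chinense the log2 change in Huh7 was 0.38 ± 0.08 (SE, edgeR adjusted p = 0.0299). P. umbellatus gave a log2 fold change of 0.61 ± 0.08 in Huh7 (edgeR adjusted p = 0.000485). The B. chinense call was lost when any 1 of its own or control libraries, or P. chinensis replicate 1 or 2, was left out (edgeR adjusted p of 0.0529 to 0.155, log2 fold change 0.33 to 0.41).

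In A549 KLF6 started from a similar level and was called with P. chinensis. KLF6 was at 87.5, 94.1 and 88.2 CPM in A549 controls. In A549 P. chinensis, KLF6 measured 106, 105 and 124 CPM. All P. chinensis libraries exceeded control. The A549 fold change with P. chinensis was 0.28 ± 0.08 (log2 ± SE, edgeR adjusted p = 0.0139). The call was lost without P. chinensis replicate 3 (0.20, edgeR adjusted p = 0.0682). The A549 B. chinense libraries held 97.6, 106 and 90.1 CPM of KLF6. For KLF6 in A549 P. umbellatus the values were 95.2, 105 and 106 CPM. Neither passed the test (edgeR adjusted p = 0.474 and 0.319). KLF6 differed between lines in its response to P. chinensis (-0.76 ± 0.11, edgeR adjusted p = 2.83e-05) and to P. umbellatus (-0.41 ± 0.11, edgeR adjusted p = 0.00671).

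KLF7, the closest relative of KLF6 and known for a role in neurons and fat cells, was lower in Huh7 than in A549 and rose in Huh7. Levels of 30.8, 32.3 and 29.6 CPM were found for KLF7 in Huh7 controls. KLF7 stood at 44.8, 45.7 and 42.7 CPM in Huh7 P. chinensis. KLF7 was at 43.3, 53.8 and 40.6 CPM in Huh7 P. umbellatus. Treated and control libraries did not overlap with either herb. P. chinensis gave a log2 fold change of 0.58 ± 0.12 in Huh7 (edgeR adjusted p = 0.00375). With P. umbellatus the log2 change in Huh7 was 0.62 ± 0.12 (SE, edgeR adjusted p = 0.00288). Both calls held in each of 20 alternative settings. In Huh7 B. chinense, KLF7 measured 39.3, 43.7 and 34.7 CPM. This did not pass the test (0.36 ± 0.12, edgeR adjusted p = 0.196). In A549 the 12 libraries ranged from 69.5 to 108.4 CPM, and no herb was called (edgeR adjusted p of 0.116 to 0.862). All A549 P. chinensis and P. umbellatus libraries nevertheless lay above every control. The A549 change with P. umbellatus passed in 3 of 20 alternative settings (edgeR adjusted p down to 0.0349). Opposite-strand RNAs, among them MYOSLID, overlap KLF7.

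KLF3 is the CtBP-recruiting repressor of the family. It was the highest member in Huh7 controls, per kb of transcript, and the one that moved least where it was called. The Huh7 control libraries held 163, 148 and 153 CPM of KLF3. For KLF3 in Huh7 P. umbellatus the values were 171, 190.4 and 168 CPM. The groups did not overlap. The Huh7 fold change with P. umbellatus was 0.24 ± 0.07 (log2 ± SE, edgeR adjusted p = 0.0154). This call was lost without control replicate 2 (0.18, edgeR adjusted p = 0.0899) or control replicate 3 (0.24, edgeR adjusted p = 0.0547). It was also lost with only the 6 libraries compared (0.21, edgeR adjusted p = 0.132). With offsets for GC content and transcript length the value was -0.01 (edgeR adjusted p = 0.864). Levels of 143, 143 and 142 CPM were found for KLF3 in Huh7 P. chinensis. These lay just below control (-0.06 ± 0.07, edgeR adjusted p = 0.588). B. chinense libraries in Huh7 and all herbs in A549 were not called, with A549 values from 67.2 to 85.5 CPM. The antisense RNA KLF3-AS1 overlaps the gene.

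KLF10, first named TGF-beta inducible early gene, is a Sin3A-binding factor known for restraining growth. It had the second largest fold change of the members in Huh7, after KLF4. KLF10 stood at 30.9, 34.7 and 29.6 CPM in Huh7 controls. KLF10 was at 81.5, 78.0 and 87.1 CPM in Huh7 P. chinensis. Treated and control libraries were far apart. In Huh7 B. chinense, KLF10 measured 42.7, 44.7 and 43.96 CPM. The Huh7 P. umbellatus libraries held 52.5, 51.5 and 54.8 CPM of KLF10. The 4 groups did not overlap one another. With P. chinensis the log2 change in Huh7 was 1.43 ± 0.08 (SE, edgeR adjusted p = 4.4e-07). B. chinense gave a log2 fold change of 0.48 ± 0.08 in Huh7 (edgeR adjusted p = 0.0114). The Huh7 fold change with P. umbellatus was 0.79 ± 0.08 (log2 ± SE, edgeR adjusted p = 0.000192). The P. chinensis and P. umbellatus calls held in each of 20 alternative settings. That of B. chinense was lost without control replicate 1 or 3 (edgeR adjusted p = 0.0709 and 0.0814) or B. chinense replicate 2 or 3 (edgeR adjusted p = 0.0606 and 0.0564), at 0.44 to 0.48.

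In A549, where KLF10 was the highest member, no herb was called. For KLF10 in A549 controls the values were 99.0, 104 and 107 CPM. Levels of 109, 114 and 124 CPM were found for KLF10 in A549 P. chinensis. Treated libraries were slightly above control. KLF10 stood at 116, 117 and 106 CPM in A549 B. chinense. KLF10 was at 109.6, 112 and 114 CPM in A549 P. umbellatus. None of the 3 passed the test, with log2 fold changes of 0.14, 0.10 and 0.05 (edgeR adjusted p = 0.0996, 0.262 and 0.579). The response differed between lines with each herb, by -1.24 ± 0.10 (A549 minus Huh7) with P. chinensis (edgeR adjusted p = 5.89e-09), by -0.35 ± 0.10 with B. chinense (edgeR adjusted p = 0.0223) and by -0.66 ± 0.10 with P. umbellatus (edgeR adjusted p = 3.76e-05). The B. chinense difference was lost without A549 control replicate 3 (edgeR adjusted p = 0.0553), A549 B. chinense replicate 3 (0.0588) or Huh7 control replicate 3 (0.0584).

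KLF11, a relative of KLF10 that is also induced by TGF-beta, rose with P. chinensis in both lines. In A549 controls, KLF11 measured 9.71, 10.5 and 11.1 CPM. The A549 P. chinensis libraries held 15.03, 17.7 and 14.1 CPM of KLF11. For KLF11 in Huh7 controls the values were 15.1, 17.1 and 15.9 CPM. In A549 the groups did not overlap. Levels of 20.8, 19.3 and 20.4 CPM were found for KLF11 in Huh7 P. chinensis. P. chinensis gave a log2 fold change of 0.54 ± 0.15 in A549 (edgeR adjusted p = 0.0137). With P. chinensis the log2 change in Huh7 was 0.39 ± 0.12 (SE, edgeR adjusted p = 0.0392). Treated libraries were again all above control. KLF11 stood at 18.1, 22.2 and 18.5 CPM in Huh7 P. umbellatus. The Huh7 fold change with P. umbellatus was 0.34 ± 0.12 (log2 ± SE, edgeR adjusted p = 0.0478). The Huh7 calls were fragile. That of P. chinensis was lost without any 1 of 8 libraries (edgeR adjusted p of 0.0545 to 0.138), and that of P. umbellatus without any 1 of 10 (edgeR adjusted p of 0.0538 to 0.142). Both were also lost with a replicate block and with offsets for GC content and transcript length. That of P. umbellatus was further lost with voom, with no filter and with only the 6 libraries compared. The P. chinensis call held in 10 of 20 alternative settings and the P. umbellatus call in 4 of 20. The A549 call was lost without P. chinensis replicate 2 (0.44, edgeR adjusted p = 0.0718). B. chinense was not called in either line, nor was P. umbellatus in A549. An RNA on the opposite strand overlaps KLF11.

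KLF9 is induced by glucocorticoids and thyroid hormone and restrains growth in several epithelia. It was the lowest member in A549. KLF9 was at 2.49, 2.85 and 1.64 CPM in A549 controls. In A549 P. chinensis, KLF9 measured 4.41, 4.79 and 3.81 CPM. Treated libraries were above control, from counts of no more than 47. With P. chinensis the log2 change in A549 was 0.82 ± 0.27 (SE, edgeR adjusted p = 0.0288). The call was lost in a fit of only the 6 libraries compared (edgeR adjusted p = 0.0618), and without control replicate 3 (0.62, edgeR adjusted p = 0.113), P. chinensis replicate 1 (0.81, edgeR adjusted p = 0.0652) or P. chinensis replicate 2 (0.74, edgeR adjusted p = 0.0879). With the other 2 herbs KLF9 libraries also lay above control, at 2.95 to 4.32 CPM, but the test was not passed (edgeR adjusted p = 0.132 and 0.124). In Huh7 the 12 libraries ranged from 10.8 to 16.7 CPM, all groups overlapped, and no herb was called (edgeR adjusted p of 0.524 to 0.894).

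KLF13, known from T cells and the heart, was the least precisely measured member. The Huh7 control libraries held 7.88, 8.08 and 7.93 CPM of KLF13. For KLF13 in Huh7 P. umbellatus the values were 1.64, 2.50 and 5.50 CPM. No treated library reached control. P. umbellatus gave a log2 fold change of -1.19 ± 0.38 in Huh7 (edgeR adjusted p = 0.0287). Levels of 4.46, 5.05 and 3.87 CPM were found for KLF13 in Huh7 P. chinensis. KLF13 stood at 3.95, 6.73 and 2.46 CPM in Huh7 B. chinense. Those 2 groups were also wholly below control without passing the test (edgeR adjusted p = 0.158 and 0.386). The P. umbellatus call was lost without any 1 control library (edgeR adjusted p of 0.0617 to 0.0644), without P. umbellatus replicate 1 (-0.89, edgeR adjusted p = 0.0847) and without P. umbellatus replicate 2 (-1.05, edgeR adjusted p = 0.0738). It was also lost with only the 6 libraries compared (edgeR adjusted p = 0.0709) and with offsets for GC content and transcript length (edgeR adjusted p = 0.13). In A549 the 12 libraries spread from 2.50 to 19.5 CPM, overlapping in every group, and no herb was called (edgeR adjusted p of 0.192 to 0.807). Its P. umbellatus response differed between lines by 2.24 ± 0.72 (A549 minus Huh7, edgeR adjusted p = 0.02), a call lost without A549 control replicate 1 (1.98, edgeR adjusted p = 0.0536) or A549 P. umbellatus replicate 3 (1.84, edgeR adjusted p = 0.0617). A pseudogene, UBE2CP4, lies within KLF13.

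**Figure D3:**
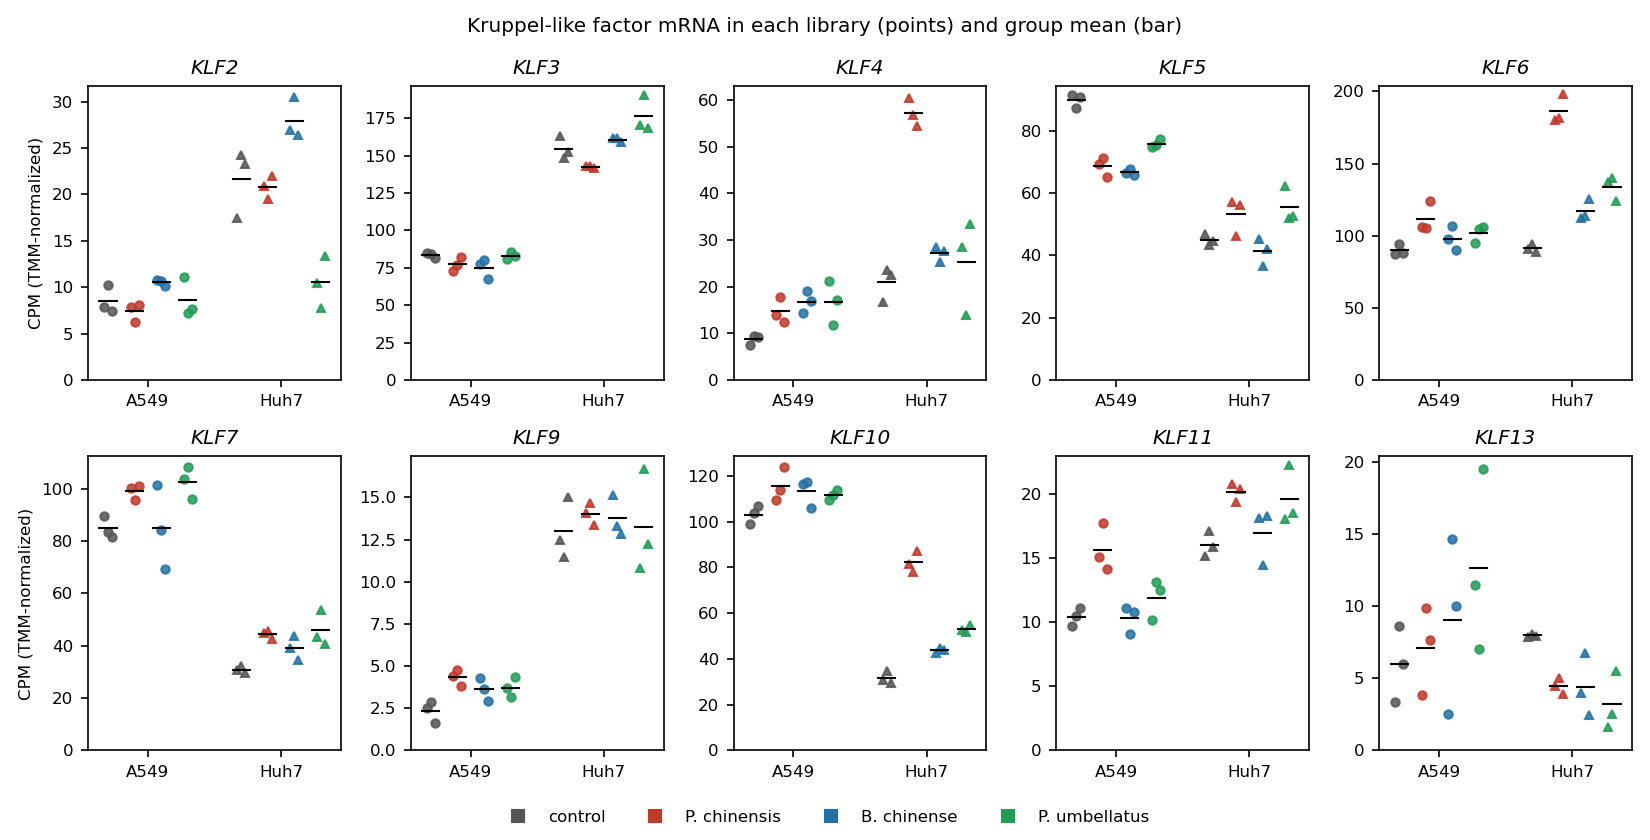
TMM-normalized CPM of each KLF gene in every library (points, 3 per group) with the group mean (bar), A549 to the left (circles) and Huh7 to the right (triangles), colored by treatment, with each panel on its own axis from 0. KLF4, KLF6 and KLF10 in Huh7 P. chinensis stand clear of all other Huh7 groups, KLF5 falls below control in each treated A549 group, and KLF13 scatters widely in A549.

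Herbs were also compared with each other within a line. In A549 no member was called in any of the 3 contrasts (edgeR, 1.45%, 3.01% and 0.0513% of all genes called). At an unadjusted p below 0.05 there were 4, 1 and 2 members, and DESeq2 and voom also called none. Log2 differences lay between -0.76 (KLF13, P. chinensis against P. umbellatus) and 0.60 (KLF11, P. chinensis against B. chinense), with edgeR adjusted p of 0.0736 to 0.999. In Huh7 P. chinensis exceeded B. chinense in 4 members (3.89% of all genes higher, 3.91% lower), KLF4 by 1.11 ± 0.22 on the log2 scale, KLF10 by 0.94 ± 0.08, KLF6 by 0.71 ± 0.07 and KLF5 by 0.40 ± 0.11 (edgeR adjusted p = 0.0107, 5.21e-05, 0.000151 and 0.0486). The KLF5 call was lost without any 1 of 8 libraries (edgeR adjusted p up to 0.202 over all settings), and that of KLF4 without P. chinensis replicate 1 or B. chinense replicate 2 or 3 (edgeR adjusted p up to 0.0531).

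Against P. umbellatus, P. chinensis was higher in 4 members and lower in 1 (16.5% and 18.8% of all genes). KLF4 was higher by 1.17 ± 0.23, KLF2 by 0.96 ± 0.18, KLF10 by 0.63 ± 0.08 and KLF6 by 0.48 ± 0.07, and KLF3 was lower (-0.30 ± 0.07), with edgeR adjusted p of 0.000307 to 0.00494. With offsets for GC content and transcript length the KLF2 and KLF3 calls were lost (0.33 and -0.09, edgeR adjusted p = 0.0973 and 0.136). B. chinense against P. umbellatus gave 1 member higher, KLF2 (1.35 ± 0.18), and 3 lower, KLF5 (-0.46 ± 0.11), KLF10 (-0.31 ± 0.08) and KLF6 (-0.23 ± 0.08), beside 12.6% and 14.6% of all genes (edgeR adjusted p = 0.00356, 0.0154, 0.0183 and 0.0423). In the main fit the order P. chinensis, P. umbellatus, B. chinense for KLF6 and KLF10 thus passed the test at each step. The KLF6 libraries of B. chinense and P. umbellatus overlapped. The lower step was the weaker: both genes lost the call there with offsets for GC content and transcript length and with only the 6 libraries compared. KLF10 also lost it without any 1 B. chinense library (edgeR adjusted p up to 0.249 over all settings), and KLF6 kept it in 4 of 20 settings. KLF2 lost its call in a fit of only the 6 libraries compared (edgeR adjusted p = 0.128). Members not called in these 3 Huh7 contrasts lay between -0.39 and 0.44 (edgeR adjusted p of 0.0756 to 0.944).

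The tests of the line difference cited with the genes above called 3 members with P. chinensis, all lower in A549 (10.3% of all genes higher and 9.3% lower). With B. chinense 1 was lower (5.8% and 5.8% of all genes), and with P. umbellatus 2 were higher and 3 lower (19.1% and 15.3%). KLF10 was the member called with each herb, with the larger rise in Huh7 every time. KLF5 and KLF6 were called with P. chinensis and P. umbellatus, and KLF2 and KLF13 with P. umbellatus. KLF9 missed the threshold with each herb at 0.72, 0.53 and 0.59 (edgeR adjusted p = 0.0726, 0.258 and 0.107). KLF7 was at -0.34, -0.36 and -0.32 (edgeR adjusted p = 0.148, 0.172 and 0.126), KLF3 at -0.03, -0.22 and -0.23 (edgeR adjusted p = 0.892, 0.137 and 0.0588) and KLF11 at 0.21, -0.11 and -0.14 (edgeR adjusted p = 0.485, 0.792 and 0.599), in the order P. chinensis, B. chinense, P. umbellatus. The KLF3 difference with P. umbellatus passed the threshold in 13 of 30 alternative settings, DESeq2 among them. It ranged from -0.32 to -0.04 over all 30. All differences not called lay between -0.73 (KLF4, P. chinensis) and 1.40 (KLF13, B. chinense), with edgeR adjusted p of 0.0588 to 0.916. Without Huh7 P. umbellatus replicate 2 the P. umbellatus calls held, at 0.86 for KLF2, -0.63 for KLF5, -0.37 for KLF6, -0.68 for KLF10 and 2.10 for KLF13 (edgeR adjusted p = 0.0136, 0.000592, 0.0127, 2.19e-05 and 0.0446). KLF9 then passed with P. umbellatus and P. chinensis (edgeR adjusted p = 0.0316 and 0.0378), and KLF4 with P. chinensis (edgeR adjusted p = 0.0352).

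Huh7 P. umbellatus differed from the other comparisons in how fold change followed base composition. Across 13875 genes its log2 fold change correlated with transcript GC content at a Pearson r of -0.613, compared with -0.0877 to 0.112 in the other 5 herb comparisons. These points share libraries and are a description without a test. Genes of at least 57% GC had a median log2 fold change of -0.57, and genes under 47% GC a median of 0.27. Among the members, KLF2 (61.2% GC) and KLF13 (57.7%) fell, while those that rose, KLF3, KLF5, KLF6, KLF7, KLF10 and KLF11, had 41.1% to 47.1% GC. With GC content and transcript length as offsets, KLF10 (0.62), KLF6 (0.45) and KLF7 (0.41) kept their calls (edgeR adjusted p = 0.000245, 0.00036 and 0.00965). KLF2 (-0.37, edgeR adjusted p = 0.0871), KLF13 (-0.85, 0.13), KLF5 (0.21, 0.164), KLF11 (0.24, 0.192) and KLF3 (-0.01, 0.864) did not. KLF4, of 55.9% GC, passed the threshold there (0.62, edgeR adjusted p = 0.0192). With the same offsets the line difference for KLF2 was 0.27 (edgeR adjusted p = 0.44) and for KLF13 1.70 (edgeR adjusted p = 0.089).

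**Figure D4:**
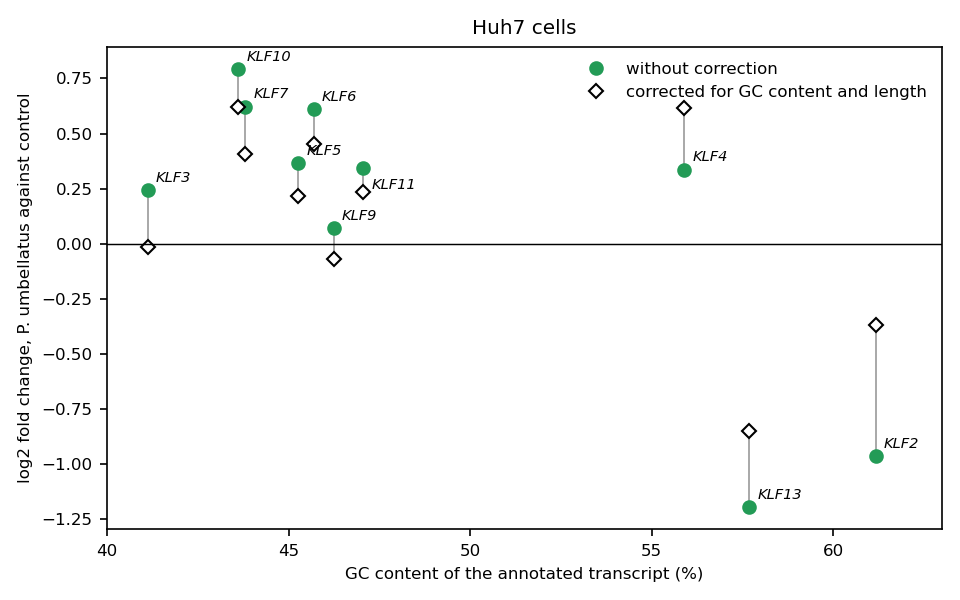
Log2 fold change of each KLF gene in Huh7 P. umbellatus against control (vertical) against the GC content of its annotated transcript in percent (horizontal), without correction (filled circles) and with offsets for GC content and transcript length (open diamonds), joined by a line per gene. The correction moves members under 48% GC down and KLF4, KLF13 and KLF2 up.

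Other KLF genes and the related SP family were counted against the shares of all genes given above. Of 8 other family members listed, 5 were in the table, none was called in A549 (0 of 5 with each herb), and in Huh7 0 rose and 1 of 4 fell with P. chinensis, 0 changed with B. chinense, and 1 rose and 2 fell with P. umbellatus, where 19.3% of all genes rose and 17.8% fell. KLF15 was at 34.5, 35.7 and 38.7 CPM in Huh7 controls. In Huh7 P. chinensis, KLF15 measured 18.3, 19.99 and 12.8 CPM. The Huh7 P. umbellatus libraries held 10.9, 8.06 and 13.6 CPM of KLF15. KLF15, a regulator of gluconeogenesis and amino acid use in liver, therefore stood below control in every library of both groups. The Huh7 fold change with P. chinensis was -1.02 ± 0.18 (log2 ± SE, edgeR adjusted p = 0.00192). P. umbellatus gave a log2 fold change of -1.66 ± 0.20 in Huh7 (edgeR adjusted p = 0.000381). KLF16 fell with P. umbellatus (-1.44 ± 0.31, edgeR adjusted p = 0.00462) from 68.6, 73.1 and 70.4 CPM to 22.4, 9.73 and 41.6 CPM. Both have GC-rich transcripts, of 60.3% and 67.8%.

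Of 9 SP genes 8 were in the table and 6 were tested in each line. In A549, 3 fell with P. chinensis, 3 with B. chinense and 2 in P. umbellatus libraries, among them SP1, the general activator at GC boxes (-0.41, -0.37 and -0.35), beside 17.1%, 15% and 14.8% of all genes that fell. None rose there. In Huh7 1 fell with P. chinensis, 0 changed with B. chinense, and 2 rose and 2 fell with P. umbellatus, where SP5 was at -1.13 ± 0.24 (edgeR adjusted p = 0.00495).

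Genes that work with or on the family were counted from lists written from general knowledge. Counts for the 3 herbs follow the order P. chinensis, B. chinense, P. umbellatus. In that order, 15.8%, 13.1% and 13.4% of all genes rose in A549 and 17.1%, 15% and 14.8% fell. In Huh7 10.5%, 0.519% and 19.3% rose and 10.5%, 0.757% and 17.8% fell. These shares are also the background of the TGF-beta, target and marker lists that follow. Of 10 co-regulators, 1 rose and 4 fell in A549 with P. chinensis, 2 rose and 2 fell with B. chinense and 2 rose and 4 fell with P. umbellatus. With each of them CTBP2, the KLF3 partner, fell by 0.23, 0.24 and 0.21 on the log2 scale, and SIN3B rose (0.38, 0.36 and 0.29). SIN3A, the partner of KLF9, KLF10, KLF11 and KLF13, fell with P. chinensis (-0.33, edgeR adjusted p = 0.00338) and P. umbellatus (-0.25, edgeR adjusted p = 0.0221) and was at -0.13 with B. chinense (edgeR adjusted p = 0.217). In Huh7 the counts were 0 and 0, 0 and 0, and 1 and 1. Of 7 genes of the ERK5-MEF2 axis, the route to KLF2 and KLF4 induction, 1 rose in A549 (MAP3K3 with B. chinense, 0.30), and in Huh7 1 rose with P. chinensis (MEF2D, 0.53) and 2 with P. umbellatus. None of them fell. Of 7 ubiquitin ligases that act on KLF proteins or their partners, 3, 1 and 2 rose in A549 and 1, 0 and 0 fell with the 3 herbs in that order. In Huh7 0, 0 and 2 rose and 1, 0 and 1 fell.

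Of 9 TGF-beta pathway genes, 3 rose and 2 fell in A549 with every herb. In Huh7 3 rose and 2 fell with P. chinensis, 0 changed with B. chinense, and 4 rose and 1 fell with P. umbellatus. TGFB2, a ligand, rose in Huh7 with P. chinensis (0.84 ± 0.10, edgeR adjusted p = 9.82e-05), as did the feedback inhibitor SMAD7 (0.68 ± 0.14, edgeR adjusted p = 0.0046). Both were named after their values were seen, and 2 others of the list fell in that comparison. The median log2 fold change of the 9 genes there was 0.09.

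The 11 genes reported elsewhere as KLF targets were also followed, 10 of them tested per line. In A549 5, 4 and 4 rose and 3, 3 and 4 fell with the 3 herbs in that order. For CDKN1A in A549 controls the values were 67.5, 75.4 and 92.9 CPM. Levels of 480.1, 452 and 473 CPM were found for CDKN1A in A549 P. chinensis. CDKN1A, which encodes the cell cycle inhibitor p21 and is also a p53 target, gave log2 fold changes of 2.54 ± 0.08, 2.41 ± 0.08 and 2.20 ± 0.08 with the 3 herbs (edgeR adjusted p = 5.51e-11, 2.71e-10 and 8.73e-10). BIRC5, the inhibitor of apoptosis survivin, fell with P. chinensis and P. umbellatus (-1.33 and -1.08), and CCNB1, the mitotic cyclin B, with P. chinensis (-1.07). TXNIP rose with P. chinensis (1.78 ± 0.51, edgeR adjusted p = 0.0148) from no more than 0.589 CPM in any control.

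In Huh7 5 targets rose and 1 fell with P. chinensis, 0 changed with B. chinense, and 2 rose and 2 fell with P. umbellatus. TXNIP stood at 12.9, 14.2 and 12.5 CPM in Huh7 controls. TXNIP was at 37.2, 41.0 and 42.3 CPM in Huh7 P. chinensis. TXNIP, which binds thioredoxin and limits glucose uptake, thus rose about as far as KLF4 (1.65 ± 0.13, edgeR adjusted p = 4.34e-06). S1PR1, a KLF2 target in T cells and endothelium, rose with P. chinensis (1.42 ± 0.41, edgeR adjusted p = 0.028) and P. umbellatus (1.31 ± 0.45, edgeR adjusted p = 0.0373) at levels of no more than 2.08 CPM.

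The genes whose log2 CPM followed a member most closely were taken for the called member with the largest change in each line, which was KLF4 in both. Over the 12 A549 libraries and 10864 genes these were MEN1 (Pearson r = 0.949), RABAC1 (0.939), PRAG1 (0.911), CTTN (0.905) and EMP3 (0.904). Over the 12 Huh7 libraries and 11254 genes they were LRRC8A (0.975), RND1 (0.973), FOSL2 (0.970), RASD1 (0.970) and PNMA1 (0.969). No gene was in both lists. The points share treatments, library preparation and depth, and the values are a description.

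Marker lists moved with some of these results, and their part in the KLF results was not tested. In A549 the hepatocyte list, of which 3 of 7 were tested, had 0 genes up and 1 down with each herb. That gene was HNF4A, the hepatocyte nuclear factor (-1.34, -1.18 and -1.23), and the summed level of the list went from 110.8 to 125.2 CPM in controls to 47.9 to 59.9 CPM in treated libraries, with ALB and APOA1 near 0. Of the lung epithelial list 5 of 7 were in the table. In A549, 0 rose and 1, 1 and 3 fell with the 3 herbs in that order, EPCAM most (-1.88 ± 0.48 with P. umbellatus, edgeR adjusted p = 0.00839), and the summed level was 7337 to 7919 CPM in controls and 6724 to 7625 CPM after treatment. The list of other cell types, 6 of 8 in the table, had 2, 1 and 2 genes up and 0 down in A549, where its sum went from 31.7 to 35.9 CPM to 66.6 to 85.5 CPM. ACTA2, smooth muscle actin, accounted for most of this (2.45, 2.31 and 2.24 with the 3 herbs), while COL1A2 was at 0 in all A549 controls.

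In Huh7 0 hepatocyte genes rose, and 3, 0 and 4 of 7 fell with the 3 herbs in that order, with ALB at -0.69 and APOB at -0.89 in P. chinensis. The summed level of the list was 20693 to 21141 CPM in controls and 12320 to 13107 CPM with P. chinensis. Of the lung epithelial list 1, 0 and 0 rose and 0 fell, with KRT7 at 0 in controls. Of the other cell types 2, 0 and 1 rose and 0 fell. COL1A1 (2.004 ± 0.62, edgeR adjusted p = 0.0368) and COL1A2 (1.30 ± 0.24, edgeR adjusted p = 0.00205) were the 2 with P. chinensis, COL1A1 mainly in replicate 2 (1.75, 6.69 and 0.932 CPM), and the summed level of the list was 71.5 to 76.1 CPM in controls and 84.8 to 94.0 CPM with P. chinensis.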

How the data were processed

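Per the labels and the study's methods, RNA was extracted with a column kit, libraries were made from ribosome-depleted total RNA with a stranded kit, and reads were quantified with kallisto against Ensembl GRCh38.p13 transcripts. The estimated counts that the authors deposited are whole numbers for each gene, unscaled for library size and limited to protein-coding genes whose mean exceeded 5. How transcripts were summed and which strand setting was used is not given in the sources used here. The table held 14585 rows, of which 1 was not protein-coding in GENCODE and was left out, and the 24 libraries held 6803648 to 24345364 counts. The precision of each value was taken from the spread between libraries of the same group, pooled for each gene over all groups of a fit. A library of 1 group thus also enters the standard errors and p-values of the other groups in that fit.

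Counts were analysed in R 4.3.3 with edgeR 4.0.16. In each line, genes with a mean count above 5 over the 12 libraries (13633 in A549, 13875 in Huh7) were scaled by TMM, and 1 quasi-likelihood model was fitted with each group as a coefficient (prior count 2). Two-sided tests were adjusted by Benjamini-Hochberg over all genes tested, and genes with an adjusted p below 0.05 were called. Differences between lines and between controls were tested in a model of all 24 libraries over 12924 genes. CPM were TMM-normalized over the 24 libraries, and lengths and GC content came from the Ensembl canonical transcript. Promoter sequences came from RefSeq (GRCh38.p14). Alternatives were DESeq2 1.42.0, limma 3.58.1 voom with quality weights, other size factors, no filter, a replicate block, offsets for GC content and length (mgcv 1.9.3), only the 6 libraries compared, and leaving out each library.

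Members and lists were chosen with earlier results of these data known. All 10 members were followed in every comparison, those not called partly by their range, and of other lists the genes called against control with an absolute log2 fold change of at least 1. Genes below that size were named after their values were seen. The genes most like a member were sought among those with a mean count of at least 50.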

Additional observations from a re-analysis of the deposited data

Results flagged for a closer look

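In 9 cases the response of a KLF gene to a herb differed between A549 and Huh7 in edgeR's interaction test (log2 fold change in A549 minus that in Huh7, adjusted p below 0.05). With P. chinensis these were KLF10 (-1.24), KLF6 (-0.76) and KLF5 (-0.67). KLF10 was also lower in its response to B. chinense (-0.35). With P. umbellatus the differences were KLF10 (-0.66), KLF5 (-0.59), KLF6 (-0.41), KLF2 (1.02) and KLF13 (2.24). KLF10 and KLF6 rose in Huh7 in each of these comparisons, and KLF5 fell in A549 in both. Huh7 P. umbellatus, whose replicate 2 stood apart in its counts over all genes, enters 5 of the 9 cases, and these passed the test without that library too. With offsets for GC content and transcript length, however, KLF2 (0.27, edgeR adjusted p = 0.44) and KLF13 (1.70, edgeR adjusted p = 0.089) lost the call. KLF13 also lost it without A549 control replicate 1 or A549 P. umbellatus replicate 3. KLF10 with B. chinense lost it without A549 control replicate 3, A549 B. chinense replicate 3 or Huh7 control replicate 3.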

How the results depend on the processing

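The log2 fold changes of all members against control and between lines, and of those called between herbs in Huh7, were repeated in each setting, and the others between herbs were not. Of these, 2457 of 2650 repeats kept their direction and side of the threshold, 112 lost the call, 47 gained one and 34 changed sign. Offsets for GC content and transcript length were added for the line difference after seeing the data. With them 2 members fell in A549 P. chinensis and 2 in A549 B. chinense, 0 fell in Huh7 P. umbellatus, 2 fell in Huh7 P. chinensis against B. chinense, and 0 fell against P. umbellatus with either. The line difference then had 5 members down with P. chinensis, 4 with B. chinense and 0 up with P. umbellatus. With only the 6 libraries compared, 2 rose in A549 P. umbellatus, 1 fell in Huh7 P. chinensis, 3 rose and 1 fell in Huh7 P. umbellatus, 2 fell in Huh7 P. chinensis against B. chinense, 0 fell in P. chinensis against P. umbellatus, and 0 rose and 0 fell in B. chinense against P. umbellatus. Voom called 1 member down in Huh7 P. chinensis, 1 in Huh7 B. chinense and 2 in P. chinensis against B. chinense. Replicate numbers were not taken as pairs: same-numbered libraries had correlated deviations of -0.0619 to 0.0515 in A549 and -0.0318 to 0.0361 in Huh7, none above 0.1, and 2 and 5 of 12 libraries correlated best with their own number. The replicate block left 1 member up in Huh7 B. chinense and kept every other count of members within 1.5 times. The cause of these shifts was not tested.

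Without 1 library, members up ranged from 1 to 4 in A549 P. chinensis, 1 to 2 in A549 P. umbellatus, 0 to 3 in Huh7 B. chinense, 3 to 6 in Huh7 P. umbellatus and 2 to 4 in Huh7 P. chinensis against B. chinense. Members down ranged from 1 to 2 in A549 B. chinense, 1 to 2 in Huh7 P. umbellatus and 0 to 5 in Huh7 B. chinense against P. umbellatus. For the line difference they were 0 to 1 up with P. chinensis, 0 to 2 down with B. chinense, and 1 to 3 up and 3 to 5 down with P. umbellatus.

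Of the results that changed sign, KLF3 in Huh7 P. umbellatus was the only one called. Upper quartile scaling gave KLF7 0.024 in A549 B. chinense, KLF2 0.012 in A549 P. umbellatus and KLF2 0.048 in Huh7 P. chinensis, the replicate block KLF2 0.0062 there. In Huh7 P. umbellatus KLF9 was -0.14 with voom and -0.069 with GC and length offsets, which gave KLF3 -0.014. Without a filter, KLF3 differed by 0.0099 between lines with P. chinensis and KLF6 by -0.019 between controls. Leaving out 1 library gave, in A549, KLF13 -0.089 to 0.55 with P. chinensis and -0.016 to 0.98 with B. chinense, KLF11 -0.11 to 0.030 and KLF7 -0.17 to 0.083 with B. chinense, and KLF2 -0.25 to 0.13 with P. umbellatus. In Huh7 it gave KLF2 -0.14 to 0.067 with P. chinensis and KLF9 -0.12 to 0.19 with P. umbellatus. Line differences ranged from -0.10 to 0.012 for KLF3 with P. chinensis, -0.17 to 0.078 for KLF2 with B. chinense and -0.24 to 0.0088 for KLF11 with P. umbellatus, and KLF6 between controls from -0.043 to 0.041.

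Counts over all genes, the background, moved by over 1.5 times as follows, with the range over all settings in parentheses. Against control in Huh7, P. chinensis had 1450 up and 1451 down (886 to 3153 and 921 to 3172), B. chinense 72 and 105 (20 to 506 and 31 to 723) and P. umbellatus 2674 and 2464 (540 to 3291 and 719 to 3071). Between herbs in Huh7, P. chinensis against B. chinense had 540 and 543 (223 to 1551 and 224 to 1904), against P. umbellatus 2295 and 2612 (846 to 3048 and 1215 to 3105), and B. chinense against P. umbellatus 1753 and 2028 (2 to 2738 and 0 to 2954). In A549 the same contrasts had 61 and 137 (11 to 131 and 20 to 324), 111 and 299 (27 to 148 and 95 to 625), and 3 and 4 (2 to 10 and 2 to 61). For the line difference, B. chinense had 750 and 749 (510 to 1229 and 589 to 1443), and P. umbellatus 2467 up (1281 to 2764).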

Other observations

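Genes that respond to glucocorticoids, the hormones that induce KLF9, were counted in both lines. Of 6 listed, 5 were tested in A549, where 1 rose and 1 fell with P. chinensis, 0 rose and 3 fell with B. chinense, and 0 rose and 3 fell with P. umbellatus. Of all genes in A549, 15.8%, 13.1% and 13.4% rose and 17.1%, 15% and 14.8% fell, in the same order of herbs. FKBP5, a chaperone of the glucocorticoid receptor, fell there with each herb (-0.89, -0.71 and -0.68) and in Huh7 with P. chinensis (-0.40, edgeR adjusted p = 0.00503). SGK1, a kinase that regulates ion transport, fell with B. chinense (-1.57 ± 0.33, edgeR adjusted p = 0.00275) from 38.0, 36.2 and 32.6 CPM to 13.3, 18.4 and 4.13 CPM.

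In Huh7 the counts were 2 up and 1 down with P. chinensis, 1 up and 0 down with B. chinense, and 2 up and 2 down with P. umbellatus. Of all genes in Huh7, 10.5%, 0.519% and 19.3% rose and 10.5%, 0.757% and 17.8% fell, in the same order of herbs. DUSP1, the phosphatase that shuts off MAP kinases, was the gene with the largest change in the list. It was at 19.5, 22.6 and 21.5 CPM in Huh7 controls and at 93.1, 90.5 and 93.7 CPM with P. chinensis, a log2 fold change of 2.18 ± 0.12 (edgeR adjusted p = 5.03e-07). It also rose with B. chinense (0.75) and P. umbellatus (0.93). In the test of the difference between lines, 1 of 5 genes was higher and 3 lower in A549 with P. chinensis, where 10.3% of all genes were higher and 9.3% lower. With B. chinense 0 were higher and 3 lower (5.8% and 5.8% of all genes), and with P. umbellatus 0 and 3 (19.1% and 15.3%). ZBTB16, a zinc finger repressor, was lower with P. umbellatus (-1.04 ± 0.27, edgeR adjusted p = 0.0122).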
